A study of Mus musculus with 18 samples.

Results

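Mouse embryonic stem (ES) cells that had lost Brg1 were set against ES cells that had lost Baf53a, by the open chromatin peaks found in each. The comparison used 4 of the 18 libraries of the series: the 2 tamoxifen libraries of the Brg1 line and the 2 tamoxifen libraries of the Baf53a line. The Brg1 line carried floxed alleles on both chromosomes (Brg1fl/fl), and the Baf53a line had 1 floxed allele over a null allele (Baf53afl/-), so it lacked 1 copy of Baf53a before any treatment. Both lines carried Actin-CreER, a Cre recombinase under an actin promoter that enters the nucleus when tamoxifen is present. Cells got 0.8 µM tamoxifen for 24 h, then medium free of it during 48 h, and the controls of each line got ethanol in its place (2 libraries each). Viable cells were sorted before the assay, and the cells were kept in serum and LIF. The replicates were passages of the same line, and the p-values below reflect how far passages of 1 line spread, not independent lines. The lines are called Brg1 Tax, Baf53a Tax, Brg1 EtOH and Baf53a EtOH here, with the replicate number after the name. The peaks of the 4 Tax lists on chromosomes 1 to 19 were merged wherever they overlapped, which gave 157088 regions.

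Brg1 (gene Smarca4) is the ATPase of the BAF complex of ES cells, the motor that uses ATP to move and evict nucleosomes. Baf53a (gene Actl6a) is an actin-related protein of the same complex that sits on the ATPase subunit, and it is also a subunit of other chromatin complexes such as INO80 and TIP60. ATAC-seq measures open chromatin with a transposase that inserts sequencing adapters where DNA is free of nucleosomes, and a peak is a stretch with more insertions than its surroundings. The comparison asks whether removing the motor and removing the actin-related subunit leave the same sites open. The deposited lists hold no read counts, only where each peak lies and how it scored, so read depth is unknown, and neither the deletion of either gene nor markers of ES cells could be checked. No gene annotation of the mm9 build was used here, so regions are given by position alone.

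The Tax lists held 83074 and 45517 peaks in Brg1 Tax 1 and 2, and 86956 and 85366 in Baf53a Tax 1 and 2. Brg1 Tax 2 stands apart as the shortest of the 18 lists, and the main counts below are also given for Brg1 Tax 1 or with lists of equal length. The ethanol lists held 105206 and 83240 peaks in the Brg1 line and 108137 and 82259 in the Baf53a line. Peak number averaged 64295.5 ± 26557 in Brg1 Tax and 86161 ± 1124 in Baf53a Tax (SD, n = 2), a ratio of 0.746. The groups did not overlap, and the exact permutation p was 0.3333 (two-sided), the smallest that 2 against 2 libraries allow. Peaks covered 24.1 and 11.3 Mb in Brg1 Tax and 24.95 and 23.5 Mb in Baf53a Tax. Median peak width was 212 and 186 bp against 209 and 205 bp. Peaks of 1 kb or wider made up 1.49% and 0.347% against 1.39% and 0.865%. The groups overlapped in these last 3 measures (exact permutation p of 0.6667 for covered length and 1 for both others). The replicate 1 lists of all 4 groups carry 1 name prefix and the replicate 2 lists another, so values within each replicate number are given beside the pooled ones.

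More sites had a peak after Baf53a deletion and none after Brg1 deletion than the reverse. A region was counted as found after only 1 of the deletions when both lists of that genotype had a peak in it and neither list of the other did. By this count, 9159 of 157088 regions (5.83%) had peaks after Baf53a deletion only, and 1901 (1.21%) had peaks after Brg1 deletion only. All 4 lists shared 25114 regions (16.0%), while 90386 (57.5%) had a peak in a single list. The same count between the ethanol controls was nearer to balance. There, 4795 of 175512 regions (2.73%) had peaks in both Baf53a EtOH lists alone and 3325 (1.89%) in both Brg1 EtOH lists alone. With every Tax list reduced to its 45517 highest-scoring peaks, the counts were 4644 after Baf53a deletion only and 2486 after Brg1 deletion only. Within replicate 1, where the lists are of similar length, 38590 regions had a peak in Baf53a Tax 1 and none in Brg1 Tax 1, and 34454 the reverse. Within replicate 2 the counts were 56604 and 15767. With Brg1 Tax 2 left out the order reversed, at 10290 and 28223, though only Brg1 Tax 1 then had to hold or lack a peak.

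The sites found after only 1 of the deletions were weaker and narrower than the sites shared by all 4 lists, and lay near the middle or below it in their own lists. The contrast with shared sites follows in part from the definition. A peak in all 4 lists is likelier at strong sites, and shared regions merge the peaks of more lists. Strength was measured by the percentile of the peak's score within its own list. The 9159 regions found after Baf53a deletion only had a median percentile of 47.7 in Baf53a Tax 1 and 49.5 in Baf53a Tax 2. The 1901 found after Brg1 deletion only had medians of 45.3 in Brg1 Tax 1 and 33.4 in Brg1 Tax 2. Regions shared by all 4 lists had medians of 83.5, 70.3, 82.7 and 82.1 in Brg1 Tax 1 and 2 and Baf53a Tax 1 and 2. The median region was 274 bp wide after Baf53a deletion only, 247 bp after Brg1 deletion only and 576 bp where all 4 lists shared it, against 197 bp over all 157088 regions. The distance to the nearest region shared by all 4 lists had a median of 25565 bp for regions found after Baf53a deletion only and 16138 bp for those found after Brg1 deletion only, with no test made. It was 18794.5 bp over all regions held in both Baf53a Tax lists, 16858.5 bp between shared regions themselves and 20111 bp over all regions. These class values were taken from the lists as deposited alone.

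The counts were also divided by the strength of the site. The 47616 regions with peaks in both Baf53a Tax lists were ordered by their mean percentile and divided into 5 classes of equal size. From the weakest class to the strongest, 44.1%, 27.0%, 15.9%, 7.68% and 1.42% had no peak in either Brg1 Tax list. The strongest class held 135 such regions of 9523. For the 30875 regions with peaks in both Brg1 Tax lists, the shares with no peak in either Baf53a Tax list were 20.3%, 6.96%, 3.04%, 0.421% and 0.0648%. The strongest class held 4 such regions of 6175. In the ethanol controls the strongest classes held 10 of 11267 regions in the Baf53a line alone and 11 of 11141 in the Brg1 line alone. These classes are different sets of regions, each ordered by the lists in which the regions were found, and Brg1 Tax 2 is the shorter list, so their shares are given as a description. With Tax lists of equal length the strongest classes held 66 of 6211 regions (1.06%) after Baf53a deletion only and 3 of 5367 (0.0559%) after Brg1 deletion only.

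Sites with no peak after Brg1 deletion were divided by whether the same line had a peak there with ethanol, using the lists as deposited. Of the 9159 regions found after Baf53a deletion only, 4098 (44.7%) had a peak in both Brg1 EtOH lists and 2495 (27.2%) in neither. Over all regions held in both Baf53a Tax lists, 78.0% had a peak in both Brg1 EtOH lists, and over all 157088 regions 32.9% did. The shares with a peak in neither were 8.18% and 49.3%. A set of 3006 (32.8%) had a peak in all 4 ethanol lists, and 1097 (11.98%) in none. Of the 1901 regions found after Brg1 deletion only, 458 (24.1%) had a peak in both Baf53a EtOH lists and 781 (41.1%) in neither. The shares were 85.7% and 4.43% over all regions held in both Brg1 Tax lists, and 33.8% and 46.6% over all 157088 regions. Of the same 1901 regions, all 4 ethanol lists held 229 (12.05%), and none held 454 (23.9%). Over all 157088 regions, all 4 ethanol lists held 26.4% and none held 39.3%. The shares were 71.0% and 3.04% over regions in both Baf53a Tax lists, and 79.8% and 2.22% over those in both Brg1 Tax lists. The series also has 10 lists of wild-type ES cells, 5 treated with DMSO and 5 with 1 µM ICRF-193, an inhibitor of TOP2, for 1 h or 24 h. The median region had a peak in 6 of these 10 wild-type lists after Baf53a deletion only and in 4 after Brg1 deletion only. The median was 9 over all regions in both Baf53a Tax lists, 10 over those in both Brg1 Tax lists and 3 over all regions. Restricting to regions held in all 4 ethanol lists was chosen after seeing the data. With Tax lists of equal length it left 2737 regions after Baf53a deletion only and 823 after Brg1 deletion only.

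The 5 regions of each kind with the highest mean percentile are given here. The highest found after Baf53a deletion only was chr13:4824786-4825521 (mm9, 736 bp). Its peak stood at percentile 99.9 in Baf53a Tax 1 and 99.2 in Baf53a Tax 2. It stood at 89.8 and 86.7 in the Brg1 EtOH lists, and neither Brg1 Tax list had a peak there. All 10 wild-type lists had a peak at this site. Next came chr4:38317960-38318496, at 99.1 and 99.6 in Baf53a Tax and 74.3 and 85.05 in Brg1 EtOH, with a peak in 3 wild-type lists. The third, chr17:6429115-6429409, stood at 99.5 and 98.9 in Baf53a Tax. Neither Brg1 EtOH list had a peak there, so this site differed between the lines with ethanol too, although all 10 wild-type lists held it. The fourth, chr14:94704733-94705222, stood at 99.5 and 97.9 in Baf53a Tax and at 98.0 and 96.4 in Brg1 EtOH. The fifth, chr17:91965680-91966361, stood at 96.9 and 98.2 in Baf53a Tax and at 84.1 and 37.2 in Brg1 EtOH. So 4 of these 5 sites had a peak in both ethanol lists of the Brg1 line and in neither of its tamoxifen lists.

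The reverse class held lower ranks below its top pair. Its highest, chr5:25173912-25174523 (612 bp), stood at percentile 97.8 and 98.9 in Brg1 Tax and 98.6 and 98.4 in Brg1 EtOH. No Baf53a list had a peak there, with ethanol or tamoxifen, so this site too differed between the lines with ethanol. The second, chr2:181652340-181652454, was 115 bp wide and stood at 97.6 and 98.5 in Brg1 Tax. It had a peak in the replicate 2 ethanol list of each line (94.3 in the Brg1 line and 96.3 in the Baf53a line), in neither replicate 1 ethanol list and in 0 of the 10 wild-type lists. The third, chr13:20054973-20055224, stood at 95.4 and 82.6 in Brg1 Tax and at 96.3 and 94.7 in Brg1 EtOH. Of the Baf53a EtOH lists, 1 held it at 40.0. The fourth, chr2:101528206-101528474, stood at 90.7 and 87.0 in Brg1 Tax and at 92.6 and 81.7 in Brg1 EtOH. Again 1 Baf53a EtOH list held it, at 24.1. The fifth, chr13:20364574-20364819, stood at 87.2 and 89.0 in Brg1 Tax and had no Baf53a EtOH peak. Both ethanol lists of the line that lacked the peak with tamoxifen held 0 of these 5, against 4 of 5 in the other class. Over the whole classes the shares were 24.1% of 1901 and 44.7% of 9159. For the line that had the peak with tamoxifen, both ethanol lists held 3 of these 5, against 5 of 5. There the class shares were 27.0% and 50.1%. The named sites of the 2 classes also differ in percentile, so their counts are a description.

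**Figure D1:**
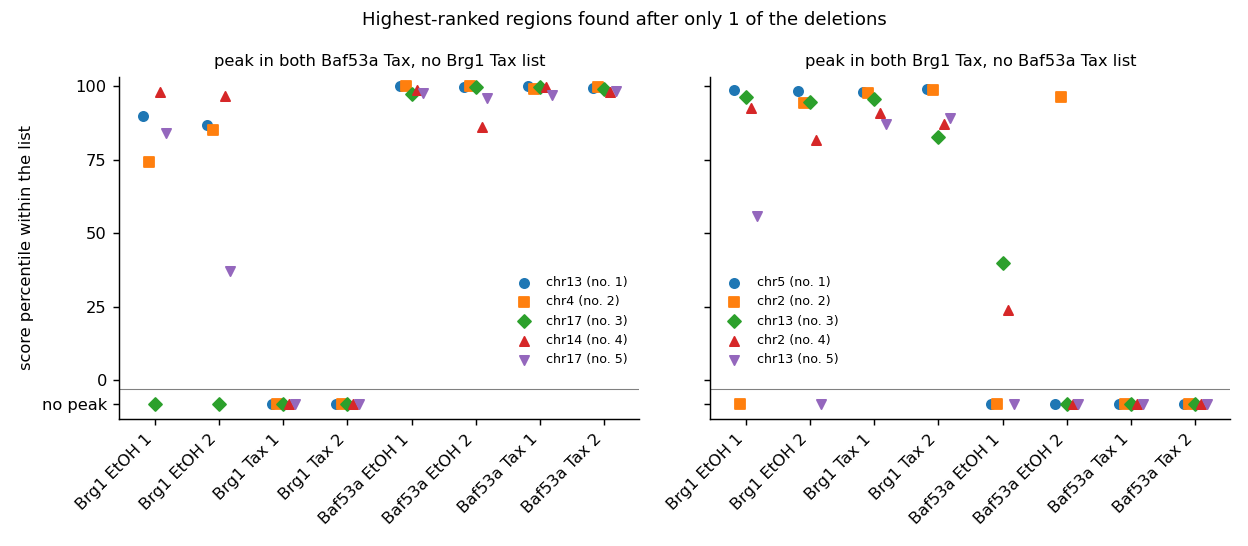
Score percentile within each list (y axis, 0 to 100, with a separate row for no peak) of the 5 highest-ranked regions found after Baf53a deletion only (left) and after Brg1 deletion only (right), in the 8 ethanol (EtOH) and tamoxifen (Tax) lists of both lines; each marker is 1 region in 1 list. On the left, 4 of the 5 regions have a peak in both Brg1 EtOH lists and none in Brg1 Tax.

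The same question was asked of sites chosen without the Tax lists. The 4 ethanol lists were merged alone, and 42479 regions had a peak in all 4. Of these, 7162 (16.9%) had no peak in Brg1 Tax 1 and 16990 (40.0%) had none in Brg1 Tax 2. In Baf53a Tax 1 and 2 the numbers were 3923 (9.24%) and 6592 (15.5%). Both Brg1 Tax lists lacked 6349 of the regions (14.9%) and both Baf53a Tax lists lacked 1983 (4.67%). The 2 groups of libraries did not overlap, though Brg1 Tax 1 and Baf53a Tax 2 lay close to each other. All 4 Tax lists held 22827 regions (53.7%). With Tax lists of equal length, Brg1 Tax 1 and 2 lacked 29.0% and 40.0%, and Baf53a Tax 1 and 2 lacked 23.1% and 28.1%. Both Brg1 Tax lists then lacked 9929 regions (23.4%) and both Baf53a Tax lists lacked 6350 (14.9%), a smaller gap than with the lists as deposited.

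These regions were ordered by ethanol score percentile and divided into 5 classes of equal size, the strongest of which held 8496 regions. Brg1 Tax 1 lacked 104 of them (1.22%) and Brg1 Tax 2 lacked 698 (8.22%). Baf53a Tax 1 lacked 9 (0.106%) and Baf53a Tax 2 lacked 41 (0.483%). A peak was present in both Baf53a Tax lists and absent from both Brg1 Tax lists at 79 of these regions and the reverse held at 0. In 4 of the 5 classes the Brg1 Tax and Baf53a Tax libraries did not overlap, the exception being the weakest, where Brg1 Tax 1 lacked 36.7% and Baf53a Tax 2 lacked 38.1%. With lists of equal length, the libraries did not overlap in the 3 strongest classes. There, Brg1 Tax 1 and 2 lacked 219 and 698 of the strongest regions (2.58% and 8.22%), and Baf53a Tax 1 and 2 lacked 17 and 90 (0.200% and 1.06%). With classes by ethanol peak width instead, the libraries overlapped in the widest class: Brg1 Tax 1 lacked 0.671% and Baf53a Tax 2 lacked 0.694%. At equal length they overlapped in the 2 widest classes, where Brg1 Tax 1 lacked 15.3% and 3.18% and Baf53a Tax 2 lacked 15.8% and 4.12%.

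**Figure D2:**
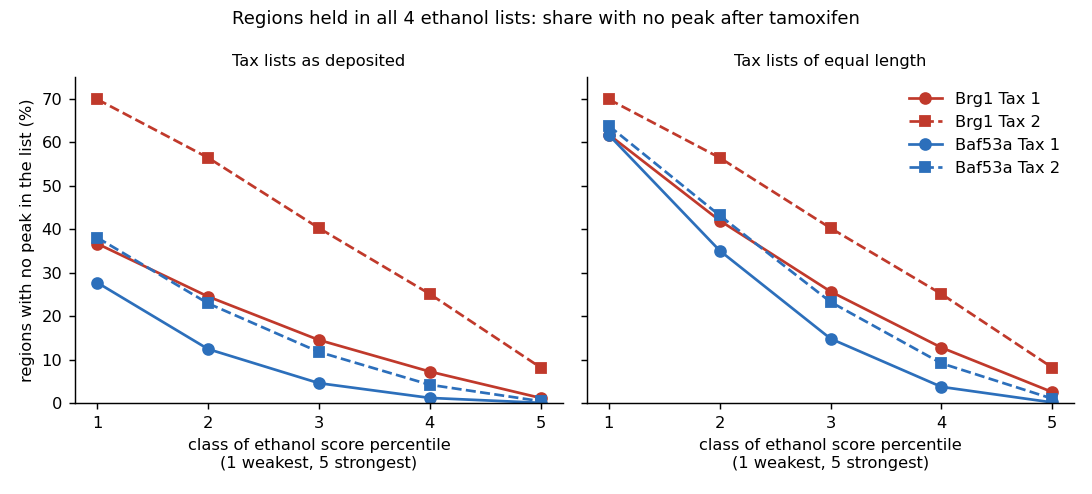
Share of the regions held in all 4 ethanol lists that had no peak in each Tax list (y axis, %), by class of ethanol score percentile (x axis, 5 classes of equal size, weakest to strongest), with the lists as deposited (left) and cut to equal length (right); each line is 1 library. In the strongest class of the left panel, Brg1 Tax lacked 1.22% and 8.22% and Baf53a Tax lacked 0.106% and 0.483%.

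Lists were also compared in pairs, again with the strongest of 5 equal classes of each list. Of the 16952 strongest regions of Baf53a Tax 1, 836 (4.93%) had no peak in Brg1 Tax 1 and 423 (2.50%) had none in Baf53a Tax 2. Of the 16554 strongest of Baf53a Tax 2, 1041 (6.29%) had no peak in Brg1 Tax 1 and 297 (1.79%) had none in Baf53a Tax 1. So strong sites of either Baf53a Tax list were missing more often from Brg1 Tax 1 than from the other Baf53a Tax list. Brg1 Tax 2 lacked 2927 (17.3%) and 3017 (18.2%) of the same sites.

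In the other direction, of the 16155 strongest regions of Brg1 Tax 1, Baf53a Tax 1 and 2 lacked 331 (2.05%) and 637 (3.94%), while Brg1 Tax 2 lacked 1412 (8.74%). Strong sites of Brg1 Tax 1 were thus missing more often from its own replicate than from either Baf53a Tax list. Cutting the lists to equal length narrowed this to 170 regions (1.91%) missing from Brg1 Tax 2, against 89 (0.999%) and 162 (1.82%) from Baf53a Tax 1 and 2. At equal length, Brg1 Tax 1 lacked 273 (3.04%) and 351 (3.94%) of the strongest sites of Baf53a Tax 1 and 2, and each Baf53a Tax list lacked 56 to 76 of the strongest sites of the other. Over whole lists, the highest overlap was between genotypes. The shared share of covered bases (Jaccard index, 1 for identical lists) was 0.312 between the Brg1 Tax lists and 0.393 between the Baf53a Tax lists. Between genotypes it was 0.399 and 0.361 for Brg1 Tax 1 with Baf53a Tax 1 and 2, and 0.290 and 0.280 for Brg1 Tax 2. The value depends on list length, and the lists with the short one gave the low values.

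**Figure D3:**
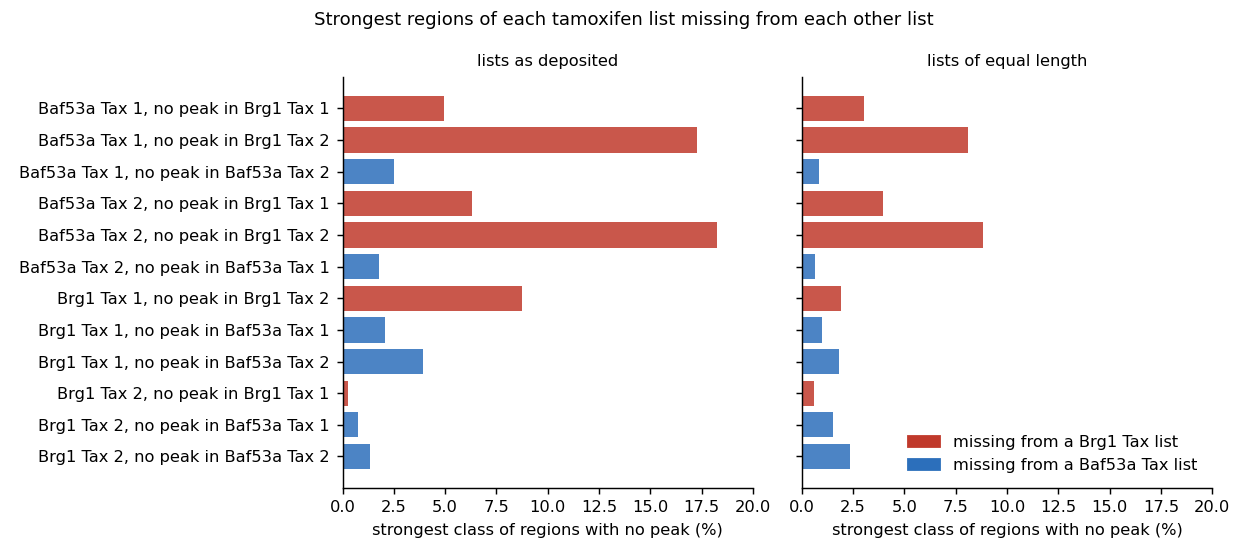
Share of the strongest regions (the highest of 5 equal classes) of 1 Tax list that had no peak in another Tax list (x axis, %), for all 12 ordered pairs of lists, as deposited (left) and at equal length (right); red bars are sites missing from a Brg1 Tax list and blue bars sites missing from a Baf53a Tax list. Strong Baf53a Tax sites were missing from Brg1 Tax 1 at 4.93% and 6.29% and from the other Baf53a Tax list at 2.50% and 1.79%.

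Among the 25114 regions with peaks in all 4 lists, the order of the scores was compared. Each region's score was ranked within its list over these regions and turned into a normal score, so that a difference of 1 is 1 SD of the ranks. By limma with 1 spread model for all regions, 0 regions ranked higher and 0 lower after Brg1 deletion (Benjamini-Hochberg adjusted p under 0.05; smallest adjusted p = 0.4182). At an unadjusted p under 0.05 there were 2214 regions, where 1255.7 would fall by chance if none differed. The spread between replicates was not even: the median SD within a genotype fell from 0.54 in the lowest of 5 equal rank classes to 0.23 in the highest. A limma fit that lets the spread follow the rank (variance trend, chosen after seeing the data) called 16 regions higher (0.0637%) and 86 lower (0.342%). The 3 regions with the smallest p in each direction of the first fit, none of them called there, were chr7:124829885-124830375, chr5:20134869-20135450 and chr9:26755262-26755788 (lower) and chr9:121261352-121261697, chr18:77947381-77947943 and chr14:26410390-26410801 (higher). The first of these, chr7:124829885-124830375, stood at percentile 26.1 and 9.58 in Brg1 Tax, 92.1 and 95.2 in Baf53a Tax, and between 93.5 and 97.5 in the 4 ethanol lists.

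The 86 regions called lower after Brg1 deletion by the variance trend fit were spread over 17 chromosomes. Their median score percentile was 79.7, against 76.7 over all 25114 shared regions. Most of those with the smallest p were among the strongest sites of the other 6 lists. The fit gives high ranks a smaller spread, so small p-values fall more readily to such sites. The 86 regions had a median difference of -1.86 SD, and all 86 had peaks in all 8 lists of both lines. Their median difference between the ethanol controls was -0.05 SD, negative in 45 of 86 (52.3%). Over all 22726 regions with peaks in all 8 lists, it was negative in 50.8%. At chr16:78828062-78828493 the percentile was 88.4 and 36.9 in Brg1 Tax, 99.8 and 99.3 in Baf53a Tax, 99.7 and 99.8 in Brg1 EtOH, and 97.8 and 98.7 in Baf53a EtOH. Both Brg1 Tax values lay below the other 6 (difference -2.55 SD ± 0.35 SE, limma with variance trend, adjusted p = 0.0004632). At chr8:99706180-99706961 it was 88.4 and 71.3 in Brg1 Tax, and between 99.2 and 99.96 in the other 6 lists (-1.93 ± 0.28, adjusted p = 0.0007419 by the same fit). At chr10:49136916-49137531 it was 97.6 and 88.7 in Brg1 Tax and at least 99.9 in the other 6 (-1.67 ± 0.24, adjusted p = 0.0008328). A second site on that chromosome, chr10:33095268-33096196, stood at 98.5 and 95.4 in Brg1 Tax and at least 99.9 in the other 6 (-1.62 ± 0.22, adjusted p = 0.0004632). At the fifth, chr15:32708379-32708878, Brg1 Tax stood at 72.6 and 48.6 and Baf53a Tax at 98.9 and 99.2 (-2.45 ± 0.32, adjusted p = 0.0004632). The Brg1 EtOH values of 87.2 and 75.6 at that site were already below those of Baf53a EtOH, 96.1 and 88.7. In all 5 the groups did not overlap, which the choice by smallest p favours, and the share over all shared regions is not given here. Leaving out Baf53a Tax 1 ended the calls at chr16:78828062-78828493 (adjusted p = 0.09892) and chr8:99706180-99706961 (adjusted p = 0.06985), and took the number called lower from 86 to 7.

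The 16 regions called higher had a median difference of 1.85 SD. Of the 15 with peaks in all 8 lists, 10 (66.7%) were also higher in Brg1 EtOH than in Baf53a EtOH. Over all 22726 regions with peaks in all 8 lists, the share was 49.2%. The smallest p fell to chr1:24619397-24620038, among the highest scores of every list: percentile 99.999 in both Brg1 Tax lists and at least as high in both Brg1 EtOH lists, 98.7 and 99.9 in Baf53a Tax, and 99.2 and 98.8 in Baf53a EtOH (1.83 SD ± 0.25 SE, limma with variance trend, adjusted p = 0.0004632). This site thus ranked higher in the Brg1 line with ethanol too. At chr14:20143927-20144979 it was 98.95 and 97.7 in Brg1 Tax and 86.3 and 76.3 in Baf53a Tax, with ethanol values of 99.5 and 95.3 against 99.1 and 92.5 (1.80 ± 0.30, adjusted p = 0.003649). Here the ethanol lists of the 2 lines overlapped and the Baf53a Tax lists were the low ones. At chr12:70221018-70221192 it was 98.4 and 94.5 against 71.1 and 75.8 (1.87 ± 0.34, adjusted p = 0.007082). With ethanol this site stood at 92.6 and 94.9 in the Brg1 line against 80.7 and 43.03 in the Baf53a line, so the lines did not overlap there either. At chr6:47689771-47690056 it was 99.1 and 98.7 against 81.2 and 92.6 (1.61 ± 0.30, adjusted p = 0.008402), and in ethanol 87.2 and 91.8 against 87.99 and 89.2, where the lines overlapped. At chr17:23671959-23672296 it was 98.0 and 93.3 against 67.1 and 73.4, and in ethanol 98.2 and 97.3 against 73.4 and 69.8 (1.89 ± 0.36, adjusted p = 0.009742). At the chr17 site the gap in percentile between the lines was much the same with ethanol. Without Baf53a Tax 1, the chr12, chr6 and chr17 sites were not called (adjusted p of 0.09892, 0.1918 and 0.1165 by the same limma fit).

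**Figure D4:**
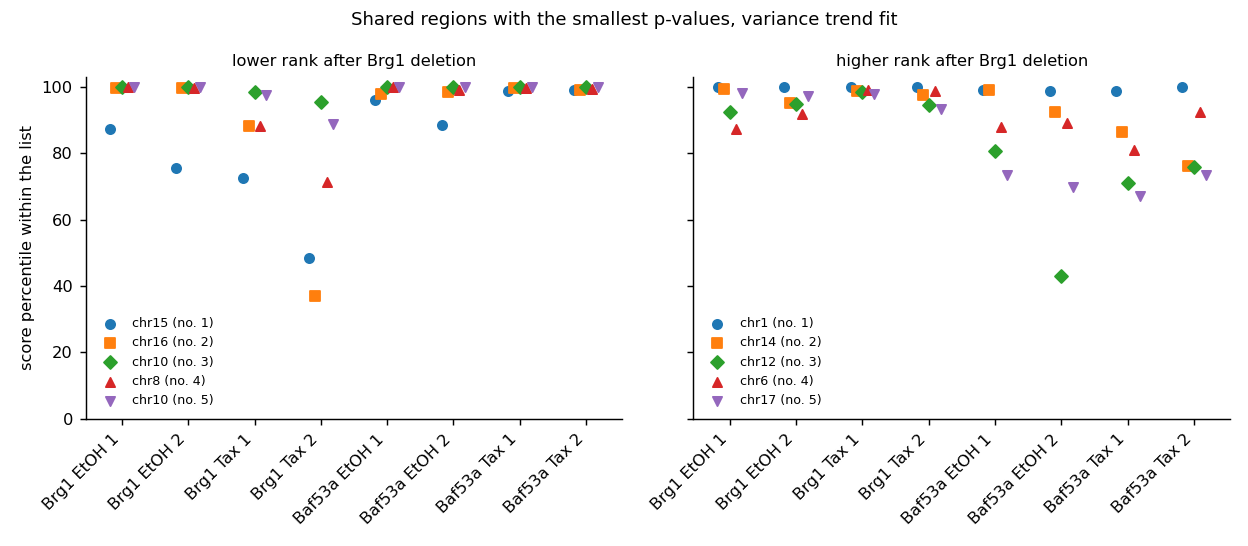
Score percentile within each list (y axis) of the 5 shared regions with the smallest p of those called lower (left) and higher (right) after Brg1 deletion by the variance trend fit, in the 8 lists of both lines; each marker is 1 region in 1 list. On the left, the 4 regions other than that on chr15 stand above percentile 97 in every EtOH list and every Baf53a Tax list. At each of them both Brg1 Tax values lie below those of all these lists, although Brg1 Tax 1 is also above 97 at the chr10 regions.

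Whether a rank differed between the deletions by more than between the ethanol controls was tested over the 22726 regions with peaks in all 8 lists. Limma called 0 of them (1611 at an unadjusted p under 0.05, 1136.3 expected by chance). The variance trend fit called 11, all with a Brg1 minus Baf53a difference that was lower with tamoxifen than with ethanol. Such a call does not tell which of the lines moved. With 8 libraries the variance trend fit called 33 regions higher and 210 lower between the Tax groups, and 4 higher and 0 lower between the ethanol groups. Of the ethanol comparison, 1115 regions had an unadjusted p under 0.05, and limma without the trend called 0.

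Peak width within the shared regions did not pass the test anywhere. Limma on log2 summed peak width called 0 of 25114 regions wider and 0 narrower (1162 at an unadjusted p under 0.05, 1255.7 expected by chance), as did the variance trend fit (967). The median log2 difference over all regions was -0.20, and it followed the short list: over the regions shared by the remaining 3 lists it was 0.04 without Brg1 Tax 2 and -0.45 without Brg1 Tax 1. The smallest p of a narrower region fell to chr8:64762954-64763893, with 132 and 173 bp of peak in Brg1 Tax, 923 and 794 bp in Baf53a Tax, and 483 to 751 bp in ethanol. Next were chr4:117507419-117508103 (137 and 114 bp against 544 and 629 bp) and chr12:103737874-103738358 (111 and 99 bp against 485 and 440 bp). The smallest p of a wider region fell to chr2:157416527-157417444, with 794 and 741 bp in Brg1 Tax and 206 and 152 bp in Baf53a Tax. Next were chr6:93598234-93599006 (758 and 562 bp against 179 and 206 bp) and chr14:54423831-54424232 (378 and 402 bp against 130 and 139 bp). In all 6 the groups did not overlap, which the choice by smallest p favours, and the share over all shared regions is not given here. Limma gave each of the 6 an adjusted p of 0.9934.

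Over longer stretches, the share of a list's peaks that fell in a given 1 Mb of chromosome differed between the deletions at many places. Windows of 1 Mb that averaged at least 10 peaks (2126 bins) were used, and limma was run on the log2 share of each list's peaks in the 8 libraries of both lines. After Brg1 deletion 97 bins (4.56%) held a smaller share of the peaks than after Baf53a deletion, and 41 bins (1.93%) a larger share (adjusted p under 0.05). Between the ethanol controls the same limma fit called 0 bins in either direction, with 82 at an unadjusted p under 0.05. Its direct test of the Tax difference against the ethanol difference called 1 bin higher and 1 lower of 2126. In that test 265 bins had an unadjusted p under 0.05, with 106.3 expected by chance. So for most called bins a difference beyond that between the ethanol controls was not established. The sparser bins had a median log2 difference of -0.96 between the Tax groups and -0.03 between the ethanol groups, and the Tax groups did not overlap in 96 of the 97. The denser bins had medians of 0.53 and 0.04, and the Tax groups did not overlap in all 41. Over all bins, called or not, the Tax groups did not overlap in 1094 of 2126. Sparser bins were poor in peaks, with a median of 22.6 per list by the mean of the 8 lists, against 34.9 over all bins and 47.75 in the denser bins. That mean includes the Brg1 Tax lists, whose values entered the calls. In the Baf53a Tax lists, which also entered them, the medians were 28, 35.5 and 40. The sparser bins lay on all 19 chromosomes, with 10 of 126 bins on chromosome 6 and 9 of 88 on chromosome 15. On chromosomes 1 and 2 the counts were 8 of 163 and 8 of 165, against 97 of 2126 over all chromosomes. The counts changed with the libraries: without Brg1 Tax 2 there were 25 sparser and 7 denser bins, without Baf53a Tax 2 there were 15 and 5, without Baf53a Tax 1 there were 50 and 18, and without Brg1 Tax 1 there were 187 and 74.

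The largest difference of a sparser bin was at chr15:19000001-20000000. It held 4 and 0 peaks in Brg1 Tax, 27 and 30 in Baf53a Tax, 14 and 14 in Brg1 EtOH, and 29 and 22 in Baf53a EtOH (log2 difference -3.78 ± 0.43 SE, limma adjusted p = 9.175e-11). The Brg1 line held fewer peaks there with ethanol as well, and in tamoxifen nearly none. Of the 12 regions with peaks in both Baf53a Tax lists in this bin, 10 had no peak in either Brg1 Tax list (83.3%). Over the 1737 bins with 10 or more regions in both Baf53a Tax lists, the median share was 18.2%, and 21 bins exceeded 50%. Next came chr12:69000001-70000000 with 4 and 1 peaks in Brg1 Tax and 16 and 17 in Baf53a Tax (-2.22 ± 0.45, limma adjusted p = 0.0008394). At chr8:29000001-30000000 there were 6 and 1 against 21 and 17 peaks, with 15 and 9 against 19 and 8 in ethanol (-2.15 ± 0.45, adjusted p = 0.001202). At chr2:141000001-142000000 there were 3 and 2 against 12 and 17 peaks (-1.84 ± 0.41, adjusted p = 0.002386). At chr14:10000001-11000000 there were 6 and 0 against 12 and 6 peaks, which overlap as shares of their lists, and the call rested on Brg1 Tax 2 (-1.84 ± 0.57, adjusted p = 0.03294; without it -0.42, adjusted p = 0.709). Without Baf53a Tax 2 the chr12 and chr2 bins were not called (adjusted p of 0.05692 and 0.1343), and without Baf53a Tax 1 the chr8 bin was not (0.05484). Only 12 of the 97 sparser bins lay side by side, in 6 runs of 2 bins. One such run, chr11:24000001-26000000, held 14 and 8 peaks in Brg1 Tax and 33 and 47 in Baf53a Tax.

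The named denser bins differed less than the named sparser ones in log2 difference with the offset of 0.5 peaks. Both terms compare Brg1 Tax with Baf53a Tax and do not mean a change from ethanol. The named sparser bins held 0 to 6 peaks in each Brg1 Tax list, and the size of their difference changed with offset and scaling. The chr15 difference was -2.65 with an offset of 2 and -2.32 with quantile normalization. For the sparser chr14 bin it was -0.92 and -0.43. With quantile normalization the chr12, chr8 and chr2 differences were -1.25, -1.23 and -1.10, and those of the 5 named denser bins 0.63 to 0.91. The difference of the sparser chr14 bin was then smaller in size than those of the denser bins. At chr14:73000001-74000000 there were 52 and 37 peaks in Brg1 Tax and 37 and 31 in Baf53a Tax (0.86 ± 0.16, limma adjusted p = 0.0002901), and the ethanol difference was 0.64. At chr4:145000001-146000000 there were 118 and 74 against 79 and 69 peaks (0.82 ± 0.15, adjusted p = 0.0001261), with 85 and 82 against 81 and 65 in ethanol. The bin beside it was also denser, and the pair was the only run of denser bins. The other 3 of the 5 named denser bins include chr3:99000001-100000000 (28 and 14 against 15 and 17 peaks, 0.79). The last 2 are chr14:19000001-20000000 (31 and 16 against 19 and 18 peaks, 0.75, ethanol 0.67) and chr14:62000001-63000000 (29 and 17 against 23 and 15 peaks, 0.74). In these 3 bins the raw counts overlap because Brg1 Tax 2 holds fewer peaks in all, and the difference is in the share of each list. Without Baf53a Tax 2 these 3 were not called (limma adjusted p of 0.1106, 0.1225 and 0.4814), and the same was true without Brg1 Tax 2 (0.1075, 0.07993 and 0.1542).

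The direction followed the peak density of the bin. With bins divided into 5 equal classes by their mean number of peaks in the ethanol lists, the median log2 difference after Brg1 deletion was -0.36, -0.12, -0.01, 0.06 and 0.12 from the sparsest to the densest. Within replicate 1 the medians ran from -0.23 to 0.07, and within replicate 2 from -0.44 to 0.16. Between the ethanol controls they ran the other way, from 0.06 to -0.05. Between the 2 Baf53a Tax lists, which share a genotype, they ran from 0.13 to -0.08. The sparsest class held 30 of the called sparser bins and 0 denser ones, and the densest held 0 sparser and 13 denser. By whole chromosomes, the share of peaks did not overlap between the Tax groups on 9 of 19, higher in Brg1 Tax on chromosomes 9, 11, 14 and 17 and lower on chromosomes 1, 10, 15, 16 and 18. Chromosome 11 held 6.90% and 7.18% of peaks in Brg1 Tax and 6.62% and 6.51% in Baf53a Tax, and chromosome 1 held 6.84% and 6.57% against 7.03% and 6.94%. The ethanol groups did not overlap on 5 of 19 chromosomes, 2 higher and 3 lower in the Brg1 line, and of these chromosomes 14 and 15 had the same direction as with tamoxifen.

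**Figure D5:**
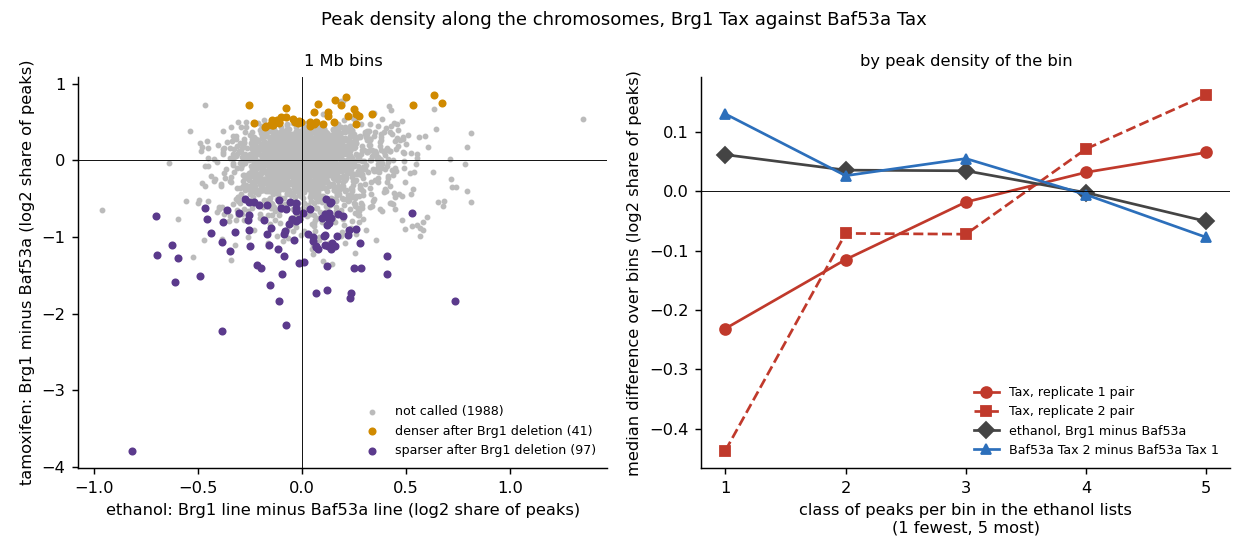
Left, log2 difference in the share of peaks per 1 Mb bin between Brg1 Tax and Baf53a Tax (y axis) against that between the ethanol controls (x axis), 1 point per bin, with the 41 denser and 97 sparser bins coloured. Right, median difference over bins (y axis, log2 share) by class of ethanol peak density (x axis, 5 equal classes) for each replicate number, for the ethanol controls and between the 2 Baf53a Tax lists; both Tax lines rise from -0.23 and -0.44 to 0.07 and 0.16.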

How the data were processed

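ATAC-seq peak lists of 18 libraries were deposited as BED files, 1 per library. Per the submitters' processing notes, Bowtie 0.12.9, MACS2, edgeR 3.12.1 and the mm9 build were used, each with a role not given in the sources used here. Positions as deposited give each peak's start and end, and the deposited score is column 5 of the BED file, the authors' own value per peak, whose unit is not given; it was used only as a rank within a list. Only chromosomes 1 to 19 were used. Peaks of the 4 Tax lists overlapping by 1 bp or more were merged into regions with numpy 2.4.6 and pandas 2.3.3. Ranks, widths and bins (offset 0.5 peaks) were tested with limma 3.58.1 in R 4.3.3 with Benjamini-Hochberg adjustment over all regions or bins, after checks on simulated data. List measures used exact permutation tests (scipy 1.17.1). Named regions were the 5 with the highest mean percentile in each class, the 5 called regions with the smallest adjusted p, the 3 with the smallest p where none was called, and the 5 called bins with the largest difference, in each direction. The libraries compared and the measures were chosen with earlier results of these data known. Alternatives were other list lengths, overlaps, scalings, offsets, bin sizes, sets of libraries, replicate blocks and left-out libraries. Planned gene lists and markers need an mm9 annotation and were not analysed here.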

Additional observations from a re-analysis of the deposited data

Results flagged for a closer look

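In 2 of the 2126 bins of 1 Mb the difference between the Tax groups was not that between the ethanol groups, by limma's test of the difference itself. Both were also called between the Tax groups. At chr15:19000001-20000000 the log2 difference between the lines was -3.78 with tamoxifen and -0.82 with ethanol, a gap of -2.97 ± 0.61 SE (adjusted p = 0.008129). At chr3:94000001-95000000 the line difference was 0.73 with tamoxifen and -0.25 with ethanol, a gap of 0.98 ± 0.21 SE (adjusted p = 0.009738). That bin held 71 and 48 peaks in Brg1 Tax, 46 and 53 in Baf53a Tax, 61 and 62 in Brg1 EtOH, and 84 and 65 in Baf53a EtOH. Both calls depended on the libraries. The chr15 bin was not called without Baf53a Tax 1 (adjusted p = 0.05654) or Baf53a Tax 2 (0.1829), nor with quantile normalization (-1.30, adjusted p = 0.3687). The chr3 bin was not called without Brg1 Tax 2 (0.05154) or Baf53a Tax 1 (0.1073), nor with lists of equal length (0.74, adjusted p = 0.09216). The 4 groups have 2 libraries each, so no outlier test within a group was made.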

How the results depend on the processing

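Regions found after Baf53a deletion only numbered 4644 with lists of equal length and 5387 with the top-scoring 50% of each list, and 21484 to 38537 without 1 of Brg1 Tax 1, Baf53a Tax 1 or Baf53a Tax 2 (10290 without Brg1 Tax 2). Those found after Brg1 deletion only numbered 902 with the top 50% and 3214 to 28223 without 1 library. The 28223 came without Brg1 Tax 2 and exceeded the 10290 found after Baf53a deletion only, the reverse of the main order. Leaving a list out also removes a condition. For regions held in all 4 ethanol lists, the counts were 3006 and 229 (823 at equal length), and 3489 to 10641 and 364 to 1503 without 1 library. Same replicate numbers did not vary together (r = 0.04 over ranks, 0.03 over bins and 0.05 over widths, 2 pairs), so the replicate block rests on the shared number and list name prefix. In the replicate block, pair 1 gave 38590 and 34454 regions and pair 2 gave 56604 and 15767, bins gave 54 denser and 119 sparser, and ranks and widths gave 0. The variance trend gave 16 higher and 86 lower ranks and 11 beyond the ethanol difference. With that trend, the replicate block gave 84 and 291, 8 libraries 33 and 210, equal lengths 10 and 73, and leaving out 1 library 6 to 63 and 7 to 529. Bins called denser and sparser numbered 24 and 57 at equal length, 18 and 37 with quantile normalization, 23 and 60 with 18 libraries, 21 and 71 in 500 kb bins, and 5 to 74 and 15 to 187 without 1 library. The difference in median width, -8 bp, ran from -21 to 5 bp without 1 library, changing sign without Brg1 Tax 2 and within pair 1 of the replicate block (3 bp). That in peaks of 1 kb or wider, -0.208 percentage points, ran from -0.780 to 0.365 without 1 library, changing sign without Brg1 Tax 2 (0.365), without Baf53a Tax 1 (0.0554) and within pair 1 (0.102). The cause was not tested. No named region or bin changed direction.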
